A study of Mus musculus with 18 samples.

Results

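The late effect of AGi was the difference between 3 cultures that expressed OKSM in the presence of AGi and 3 that expressed OKSM alone, set against each other within days 8, 10 and 12 of induction. These 6 arrays of the 18 in the series were all the arrays of both arms on those days, and the labels alone chose them. The tested cultures were bulk populations of reprogrammable mouse embryonic fibroblasts (MEFs, strain Black6-129X1/SvJ) with the 4 factors of OKSM (Oct4, Klf4, Sox2 and Myc) plus ascorbic acid and a GSK3 inhibitor, together called AGi. Their counterparts were the same kind of culture with OKSM and without AGi. Both arms carried the same inducible factors, so the contrast is one of AGi on top of OKSM. Whether the induced factors were expressed alike in both arms was not tested. Single arrays of wild-type embryonic stem cells (ESCs) and of reprogrammable MEFs without doxycycline serve as levels to read against. Each arm had 1 array per day, no arm and day was repeated, and the labels do not say whether the days were separate cultures. The errors and p-values therefore measure the spread of the AGi difference between 3 days, whatever its source. The cultures were not sorted, so a lower value may come from fewer cells of a type or from less RNA per cell, and these cannot be told apart here.

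Reprogramming replaces the programme of a fibroblast with that of a pluripotent stem cell. Fibroblast and contractile genes are shut off, epithelial adhesion genes are turned on in a mesenchymal-to-epithelial transition, and the endogenous pluripotency network is activated last. Inhibition of GSK3 stabilises beta-catenin, the transducer of Wnt signals, and relieves repression of naive pluripotency genes by Tcf7l1. Ascorbic acid is a cofactor of dioxygenases that demethylate DNA (the TET enzymes) and histones (the Jumonji family), and of the enzymes that hydroxylate collagen.

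The pluripotency network, the epithelial genes and the replication genes were higher with AGi in the late cultures, and fibroblast, collagen, contractile and macrophage genes were lower. In limma's fit, paired by day, 2247 of 13366 tested genes were higher with AGi (16.8%) and 2337 lower (17.5%) at an adjusted p of 0.05. The counts of every list below are to be read beside these shares. All 4584 called genes (34.3%) differed in 1 direction on all 3 days. The call nearly requires this, since it rests on the same 3 differences, so the shared direction adds no evidence. A called difference of at least 1 on the log2 scale was found for 369 genes higher (2.76%) and 651 lower (4.87%), and the median difference of all tested genes was 0.01. The count depended on which day was left out. Leaving out day 10 gave 473 genes higher and 820 lower. The same fit gave 1419 and 1673 when day 8 was left out, and 2847 and 2772 when day 12 was. Of the genes called with all days, 1286 were also called without day 10. Each such fit estimates the spread anew from 2 days, so a lost call need not mean a smaller difference. In limma's fit without day 10, Cyp2b23 had an adjusted p of 0.014 at a difference of 3.94. Without day 12 it had 2.13e-06 at 4.06. Peg10 lost its call without day 10 at a difference of 1.40, against 1.39 with all days. The hybridisation controls are bacterial and phage transcripts added to the labelled sample. All 18 of their probe sets gave higher values in the AGi arm, by a mean of 0.15 ± 0.09 (SD over 3 days, exact permutation test by sign flips, two-sided p = 0.25, the smallest 3 days allow). Their differences lay between 0.06 and 0.28, limma called none of them, and no called gene differed by as little as the largest of them. Differences that small do not reach the threshold in this fit, whatever their source. Lama3, at 0.29 ± 0.09 (limma SE), did not pass (adjusted p = 0.0623). The absence of calls therefore does not set the genes apart from the controls. When limma tested against that largest control difference in place of 0, it called 794 genes higher and 1136 lower. With each array shifted by its hybridisation controls the median of all genes moved to -0.14 and the split to 1254 higher and 3232 lower.

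**Figure D1:**
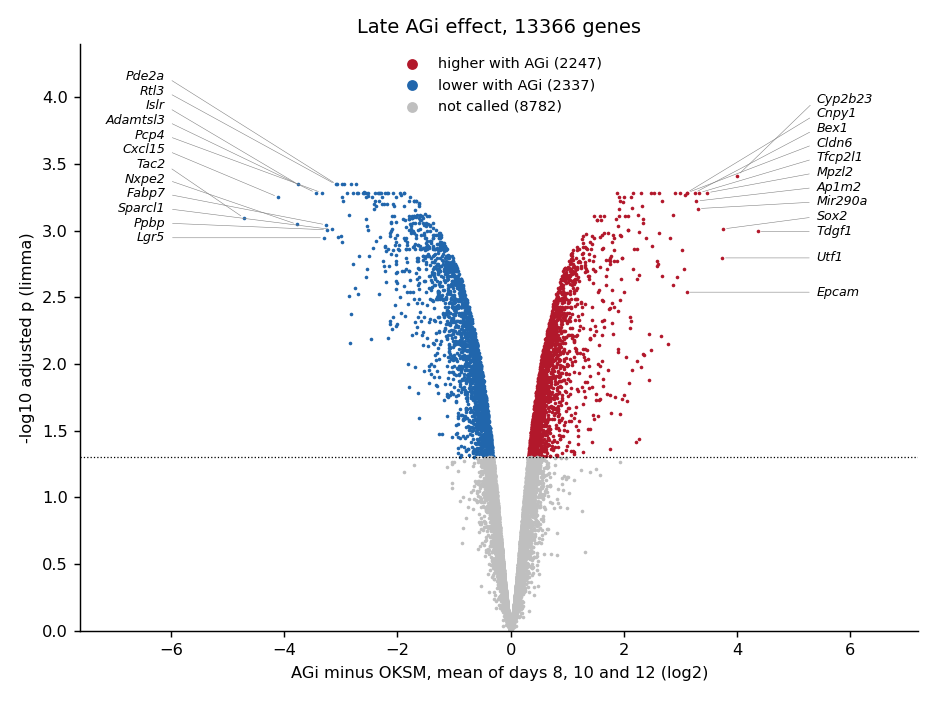
Difference between the AGi and OKSM arms on the log2 scale (horizontal, mean of days 8, 10 and 12) against -log10 of limma's adjusted p (vertical) for 13366 genes, 1 point per gene, with the 12 highest and 12 lowest called genes labelled. The 2247 higher and 2337 lower genes form arms of like size, and the labelled genes run out to 4.36 (Tdgf1) and -4.71 (Tac2).

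The naive pluripotency list, the factors of the ground state of ESCs, had 17 of its 20 genes tested, of which 14 were higher with AGi and none lower, against 16.8% and 17.5% of all genes. Its median difference was 1.64, and a count over tested genes is a description, since a gene could pass the filter through 1 arm alone. Nanog, a core factor of the network, read 11.41, 11.78 and 12.08 on days 8, 10 and 12 with AGi, against 7.56, 8.60 and 9.95 with OKSM alone (log2 levels, as throughout). Every AGi array lay above every OKSM array, and the AGi array of day 12 stood close to the ESC array at 12.26. The difference was 3.06 ± 0.31 (log2, limma SE, n = 3 days, adjusted p = 0.00195), or 8.32-fold. Among all tested genes, 25.7% had AGi arrays that all lay above the OKSM arrays and 25.5% had them all below. Tfcp2l1, a naive factor downstream of LIF and Wnt signals, read 9.79, 10.81 and 12.02 with AGi, against 6.78, 7.02 and 8.83 with OKSM (difference 3.33 ± 0.17, adjusted p = 0.00052). Its day 12 AGi level exceeded that of the ESC array at 11.39.

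Zfp42 (Rex1), a marker of the naive state, read 7.27, 8.36 and 9.80 with AGi, against 5.27, 5.32 and 6.04 with OKSM. The OKSM arrays of days 8 and 10 sat at the MEF level of 5.39, and the AGi array of day 12 at the ESC level of 9.89 (difference 2.93 ± 0.31, adjusted p = 0.00224). Trim6, a ubiquitin ligase of ESCs, read 8.42, 9.30 and 10.28 with AGi, against 6.08, 6.19 and 7.14 with OKSM (2.86 ± 0.18, adjusted p = 0.000761). Esrrb, an orphan nuclear receptor of the naive state, rose late: 6.75, 7.52 and 8.78 with AGi, against 6.06, 6.16 and 6.61 with OKSM. Its groups did not overlap, and its difference of 1.41 ± 0.27 passed the test (adjusted p = 0.0122) but not without day 10 (adjusted p = 0.081). The other called members, Klf2, Klf5, Nr0b1, Nr5a2, Dppa3, Zfp296, Tcl1, Fbxo15 and Pecam1, had differences between 1.19 (Klf5) and 2.62 (Zfp296). The 3 members that did not pass, named after their values were seen, were Tbx3 at 1.40, Gbx2 at 0.01 and Zfp57 at -0.01. On day 12, 16 of the 17 tested naive genes were within 1 log2 of the ESC array with AGi and 2 with OKSM. On day 8 the counts were 3 with AGi and 2 with OKSM. Of all 13366 tested genes, 11931 were that near on day 12 with AGi and 10384 with OKSM, and 11528 and 10343 on day 8. The naive genes were thus near the share of all genes with AGi on day 12. They were far below it with AGi on day 8 and with OKSM on both days. Without day 10, 7 of the 17 were called.

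**Figure D2:**
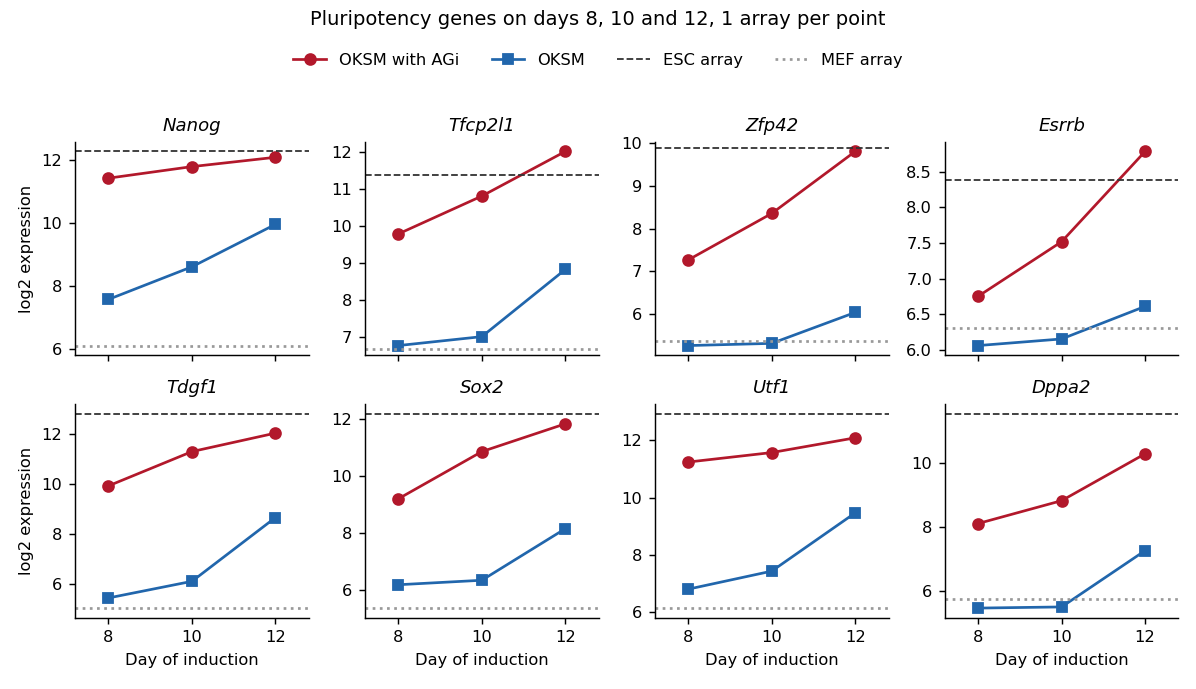
Log2 expression (vertical) of 8 pluripotency genes by day of induction (horizontal), 1 array per point, with OKSM plus AGi as circles and OKSM as squares; the dashed and dotted lines are the single ESC and MEF arrays. In all 8 panels the AGi points lie above the OKSM points of the same day, and for Zfp42, Esrrb and Dppa2 the OKSM points of days 8 and 10 lie below the MEF line.

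The promoters of Nanog and Zfp42 are shown because both genes rose and both hold an octamer element, the binding sequence of Oct4. The sequences are RefSeq windows of GRCm38.p6 from 250 bases before to 50 after the annotated start, 5′ to 3′ on the gene's strand. Nanog is at chr6:122707239-122707538 on the plus strand, with the octamer core (TTTGCAT), 1 further base and the Sox half-site (ACAATG) in capitals, and Zfp42 at chr8:43306960-43307259 on the minus strand, with the octamer core alone in capitals.
Nanog: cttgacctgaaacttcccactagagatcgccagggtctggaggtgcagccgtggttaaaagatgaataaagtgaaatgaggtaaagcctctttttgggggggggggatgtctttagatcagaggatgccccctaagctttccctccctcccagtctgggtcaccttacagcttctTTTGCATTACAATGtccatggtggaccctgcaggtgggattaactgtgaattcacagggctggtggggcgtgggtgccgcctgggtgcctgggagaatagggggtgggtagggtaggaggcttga
Zfp42: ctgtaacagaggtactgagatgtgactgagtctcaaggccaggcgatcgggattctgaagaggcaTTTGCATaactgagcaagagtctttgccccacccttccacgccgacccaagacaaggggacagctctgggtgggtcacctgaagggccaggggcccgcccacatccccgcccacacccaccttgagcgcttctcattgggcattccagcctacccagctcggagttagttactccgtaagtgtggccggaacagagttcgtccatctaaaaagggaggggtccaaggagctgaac
On either strand the composite was found in 2 of 32851 promoter windows (0.00609%), and both were overlapping windows of Nanog. The octamer core, which the composite contains, was found in 4.63% of all windows. Among the genes of the naive list with a window it was found in 3 of 12, Nanog, Zfp296 and Zfp42. Among the general pluripotency genes it was found in 1 of 17, Sox2. A gene counted where any of its windows matched, whereas 4.63% is a share of single windows. A match describes letters in a window and does not show binding.

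The list of general and late pluripotency genes had 19 of 24 genes tested, of which 16 were higher with AGi and none lower (median 1.10). Tdgf1 (Cripto), a Nodal co-receptor, had the largest late difference of all called genes. It read 9.92, 11.29 and 12.03 with AGi, against 5.42, 6.09 and 8.64 with OKSM, a difference of 4.36 ± 0.32 (adjusted p = 0.00101) or 20.5-fold. Utf1, a chromatin-bound factor of undifferentiated cells, read 11.24, 11.57 and 12.09 with AGi, against 6.81, 7.44 and 9.47 with OKSM (3.73 ± 0.34, adjusted p = 0.0016). With AGi both genes stood high by day 8, while with OKSM their steepest step came between days 10 and 12. Dppa2, an activator of early embryonic genes, read 8.12, 8.83 and 10.29 with AGi, against 5.48, 5.52 and 7.27 with OKSM (2.99 ± 0.15, adjusted p = 0.00052). All OKSM levels of Dppa2 on days 8 and 10 were below the MEF array at 5.76. On day 12, 14 of the 19 tested genes were within 1 log2 of the ESC array with AGi, and 1 with OKSM. Over all 13366 tested genes the counts were 11931 and 10384, so the list's share was the lower one in both arms. The members that did not pass were Sall1 (-0.20), Jam2 (-0.07) and Ooep (1.03), named after their values were seen.

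The reprogramming factors themselves did not move together. Sox2 read 9.20, 10.86 and 11.84 with AGi, against 6.18, 6.34 and 8.15 with OKSM, and rose by 3.75 ± 0.27 (adjusted p = 0.000971). Its AGi array of day 12 approached the ESC level of 12.19. Pou5f1, which encodes Oct4, read 7.36, 7.69 and 7.79 with AGi, against 7.10, 7.17 and 7.34 with OKSM. This difference of 0.41 ± 0.10 (adjusted p = 0.0301) was small, and the call was lost without day 8 (adjusted p = 0.0675), without day 10 (adjusted p = 0.186) and against the largest control difference (adjusted p = 0.399). Its probe set also read low in the ESC array, at 8.13, against 6.80 in MEFs. Klf4 read 11.80, 11.98 and 11.59 with AGi, against 11.66, 11.78 and 11.78 with OKSM, with a difference of 0.05 ± 0.12 (adjusted p = 0.771), whose sign turned to -0.098 with arrays shifted by the hybridisation controls and to -0.024 without day 10. Myc read 9.04, 8.60 and 9.11 with AGi, against 10.01, 10.01 and 9.92 with OKSM, and fell (-1.07 ± 0.14, adjusted p = 0.00415). The files do not say which probes of these genes also read the induced OKSM transcript, so endogenous and induced RNA cannot be told apart for them.

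The miR-290 cluster is the main microRNA locus of mouse ESCs, and the miR-302 cluster that of the primed epiblast. Of their 14 listed genes 6 had a probe set of their own, and of these Mir290a passed the filter on low values. Its mature strands and the related 3′ strands of miR-302 are shown to compare their seeds, bases 2 to 8, in capitals (RefSeq, GRCm38.p6).
miR-290a-3p: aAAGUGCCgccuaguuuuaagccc
miR-302b-3p: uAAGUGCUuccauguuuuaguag
miR-302d-3p: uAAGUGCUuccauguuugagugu
miR-302c-3p: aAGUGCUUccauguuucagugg
miR-290a-5p: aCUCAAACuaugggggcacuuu
The seeds of miR-302b-3p and miR-302d-3p were identical (AAGUGCU), and these 3 strands, miR-290a-3p included, shared bases 2 to 7 (AAGUGC). The probe set of Mir290a, which reads the precursor's locus rather than the mature strands, gave 6.98, 7.82 and 9.63 with AGi, against 4.23, 4.46 and 5.83 with OKSM. It rose by 3.30 ± 0.20 (adjusted p = 0.000683), and its AGi level of day 12 was above that of the ESC array at 8.60. The miR-302 probe sets stayed under the array median of 6.32 to 6.37 on every array. Mir302c read 4.75, 4.95 and 5.84 with AGi, against 3.93, 4.07 and 4.25 with OKSM. In limma's fit with no filter on low values it differed by 1.09 ± 0.17 (adjusted p = 0.0106) and Mir302a by 0.45 ± 0.10 (adjusted p = 0.0307), while Mir302b, Mir302d and Mir367 differed by 0.09, 0.30 and 0.25 and did not pass.

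Genes of the Nodal pathway and the primed epiblast went both ways. Of 13 tested, 5 were higher (Eomes, Lefty2, Nodal, Foxd3 and Lefty1) and 4 lower (Fgf5, Pou3f1, Fst and Dnmt3a), with a median of 0.06, and without day 10 the counts were 2 and 1. Fgf5, the classical marker of the primed state, read 5.94, 6.17 and 5.86 with AGi, against 7.88, 8.07 and 7.88 with OKSM. The AGi levels lay below the MEF array at 6.64 and the OKSM levels above it, a difference of -1.95 ± 0.10 (adjusted p = 0.00052). The ESC array stood at 7.58, nearer to the OKSM levels. Pou3f1 (Oct6), also of the primed state, read 7.03, 7.18 and 6.68 with AGi, against 8.02, 8.23 and 8.98 with OKSM (-1.44 ± 0.27, adjusted p = 0.0111, and 0.0523 without day 10), and its ESC array at 8.47 was again nearer to OKSM. Eomes, a T-box factor, differed by 1.02 ± 0.12 (adjusted p = 0.00329). Lefty2, a secreted Nodal antagonist, differed by 0.93 ± 0.15 (adjusted p = 0.00805, and 0.0679 without day 10). Its AGi levels of 6.80 to 7.05 were far from the ESC array at 10.46.

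Listed epithelial genes rose broadly: 30 of 39 tested were higher and 1 lower, against 16.8% and 17.5% of all genes, with a median difference of 1.17. The list was written with earlier results of these data known. It held the 4 claudins that rose and left out Cldn1, which fell (-1.48). Cdh1 (E-cadherin), the adherens junction protein of epithelia and ESCs, read 11.44, 11.73 and 11.45 with AGi, against 8.47, 8.76 and 9.64 with OKSM. The AGi arm was level from day 8 on and near the ESC array at 11.91, and the difference was 2.58 ± 0.24 (adjusted p = 0.0017) or 5.99-fold. Epcam, an adhesion molecule of the same cells, read 10.52, 11.16 and 10.72 with AGi, against 7.0, 7.29 and 8.79 with OKSM (3.10 ± 0.36, adjusted p = 0.00289). Mpzl2, an epithelial adhesion protein, read 10.49, 11.02 and 10.66 with AGi, against 7.53, 7.26 and 6.98 with OKSM (3.47 ± 0.18, adjusted p = 0.00052). The OKSM arm stayed at or below the MEF level of 7.46 for Mpzl2 except on day 8. Ap1m2, the epithelial subunit of a clathrin adaptor that sorts basolateral proteins, read 8.88, 9.76 and 9.54 with AGi, against 5.89, 5.92 and 6.53 with OKSM (3.28 ± 0.19, adjusted p = 0.0006). Cldn6, a tight junction claudin of the early embryo, read 9.10, 9.61 and 10.06 with AGi, against 6.03, 6.17 and 7.22 with OKSM (3.12 ± 0.14, adjusted p = 0.00052). On day 8, 30 of the 39 tested epithelial genes were within 1 log2 of the ESC array with AGi and 12 with OKSM, and on day 12 the counts were 32 with AGi and 15 with OKSM. Over all 13366 tested genes the counts were 11528 and 10343 on day 8, and 11931 and 10384 on day 12. The epithelial share was the lower one in both arms. The splicing factors Esrp1 (2.39) and Esrp2 (1.69) and the transcription factors Grhl2 (1.59), Grhl3 (2.25) and Elf3 (2.87) were among those that rose, and Ehf, an ETS factor of epithelia, fell (-2.24).

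The fibroblast programme was lower in the AGi arm: 27 of 39 tested genes were lower and 1 higher, with a median of -0.92. Islr, a secreted protein of mesenchymal cells, read 7.36, 7.17 and 8.13 with AGi, against 10.80, 11.24 and 11.89 with OKSM (-3.75 ± 0.14, adjusted p = 0.00045). Its AGi levels stood near the MEF array at 7.99, and its OKSM levels far above. Postn (periostin), a matrix protein of activated fibroblasts, read 8.17, 7.56 and 9.07 with AGi, against 10.38, 10.99 and 11.45 with OKSM (-2.67 ± 0.24, adjusted p = 0.00156), both below the MEF array at 12.30. Fmod, a small proteoglycan that binds collagen, read 9.58, 8.99 and 8.86 with AGi, against 11.58, 11.66 and 11.75 with OKSM (-2.52 ± 0.18, adjusted p = 0.000985). Fbln5, an elastic fibre protein, read 10.51, 10.13 and 8.74 with AGi, against 12.03, 11.94 and 11.82 with OKSM (-2.14 ± 0.30, adjusted p = 0.00473). The groups did not overlap for any of these 4 genes, which were picked as the list's largest called differences. Among all tested genes, 25.5% had every AGi array below every OKSM array. Thy1, the fibroblast surface marker often used to follow reprogramming, read 10.50, 10.39 and 10.90 with AGi, against 11.43, 11.53 and 11.17 with OKSM. Its difference of -0.78 ± 0.18 passed (adjusted p = 0.0217). The call was lost both without day 8 (adjusted p = 0.0526) and without day 10 (adjusted p = 0.135), and on day 12 the AGi level was far above the ESC array at 8.44. The regulators of the mesenchymal state Snai1 (-0.58), Snai2 (-1.20), Zeb1 (-0.78), Prrx1 (-0.63) and Prrx2 (-0.92) fell, whereas Twist1 (-0.19), Twist2 (-0.59) and Vim (-0.14) did not pass. Fap, a membrane protease of activated fibroblasts, was the member that rose (0.87). It and the regulators were named after their values were seen.

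Collagen chains were lower for 13 of 17 tested genes and higher for 1, Col18a1 (0.45), a basement membrane collagen. Without day 10, 8 were lower and 0 higher. Col1a1, the main chain of fibrillar collagen I, read 11.04, 10.76 and 10.19 with AGi, against 11.78, 11.74 and 11.63 with OKSM (-1.05 ± 0.15, adjusted p = 0.00552, and 0.0502 without day 10). Both arms were below the MEF array at 12.60 and above the ESC array at 9.52. Col11a1 fell by 1.83 ± 0.17 (adjusted p = 0.00172), Col15a1 by 1.60 ± 0.13 (adjusted p = 0.0013) and Col5a2 by 1.36 ± 0.11 (adjusted p = 0.00113). Col12a1 fell by 1.36 ± 0.26 (adjusted p = 0.0126), a call lost without day 10 (adjusted p = 0.0779). The enzymes that modify collagen, among them the prolyl hydroxylases that use ascorbic acid, were lower for 16 of 22 tested genes and higher for none (median -0.75, 9 lower without day 10). P4ha3, a subunit of prolyl 4-hydroxylase, read 10.06, 9.84 and 9.34 with AGi, against 11.34, 11.33 and 11.15 with OKSM (-1.53 ± 0.13, adjusted p = 0.00135). Lox, which crosslinks collagen and elastin, read 11.19, 10.69 and 11.21 with AGi, against 12.52, 12.52 and 12.53 with OKSM (-1.49 ± 0.14, adjusted p = 0.00156). Adamts3, a procollagen protease, differed by -1.39 ± 0.16 and P3h2, a prolyl 3-hydroxylase, by -1.17 ± 0.12 (adjusted p = 0.00265 and 0.00195). P4ha1 (-0.33), Plod1 (0.03) and Plod2 (0.44), other hydroxylases of collagen named after their values were seen, did not pass.

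Targets and components of TGF-beta signalling and the contractile genes were lower for 28 of 35 tested members and higher for none (median -0.74). Tagln (SM22), an actin-binding protein of smooth muscle and myofibroblasts, read 9.46, 8.50 and 9.21 with AGi, against 11.60, 11.37 and 10.97 with OKSM (-2.26 ± 0.21, adjusted p = 0.00168). Ccn2 (connective tissue growth factor) read 9.61, 9.02 and 10.15 with AGi, against 11.74, 11.51 and 11.74 with OKSM (-2.07 ± 0.18, adjusted p = 0.0014). Myl9, the regulatory myosin light chain, read 9.38, 8.70 and 9.32 with AGi, against 11.52, 11.12 and 10.83 with OKSM (-2.02 ± 0.18, adjusted p = 0.00153). The AGi levels of these 3 genes lay below their ESC arrays (9.80, 10.05 and 9.78) except for Ccn2 on day 12, and the OKSM levels lay between the ESC and the MEF arrays. Cnn1 (calponin) read 7.32, 6.63 and 7.15 with AGi, against 9.49, 8.83 and 7.84 with OKSM (-1.69 ± 0.31, adjusted p = 0.0105, and 0.0806 without day 10). The ligands Tgfb2 (-1.02) and Tgfb3 (-1.06), the receptors Tgfbr1 (-0.67) and Tgfbr2 (-0.66) and the transducer Smad3 (-0.58) fell, and Tgfb1 (-0.10) did not pass. Without day 10, 10 of the 35 were called.

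The promoter of Myl9 is shown as an example of a contractile gene with a CArG box, the binding sequence of serum response factor, in capitals (RefSeq, chr2:156775214-156775513 of GRCm38.p6, plus strand).
Myl9: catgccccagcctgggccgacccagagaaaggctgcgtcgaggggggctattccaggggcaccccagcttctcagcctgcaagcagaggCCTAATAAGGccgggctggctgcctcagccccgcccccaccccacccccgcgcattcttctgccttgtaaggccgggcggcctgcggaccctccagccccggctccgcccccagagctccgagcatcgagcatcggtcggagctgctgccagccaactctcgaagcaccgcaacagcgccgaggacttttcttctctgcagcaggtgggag
A CArG box was found on either strand in 1.63% of all windows. Of the 25 genes of this list with a window, 2 held it, Cnn2 and Myl9. It was also found in 2 of 18 such genes of the beta-catenin list, Lef1 and Tcf7, and in 1 of 24 of the epithelial list, Tmc4. A gene counted where any of its windows matched, so these counts are not like the share of single windows. Tagln and Ccn2 had no window in the table.

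**Figure D3:**
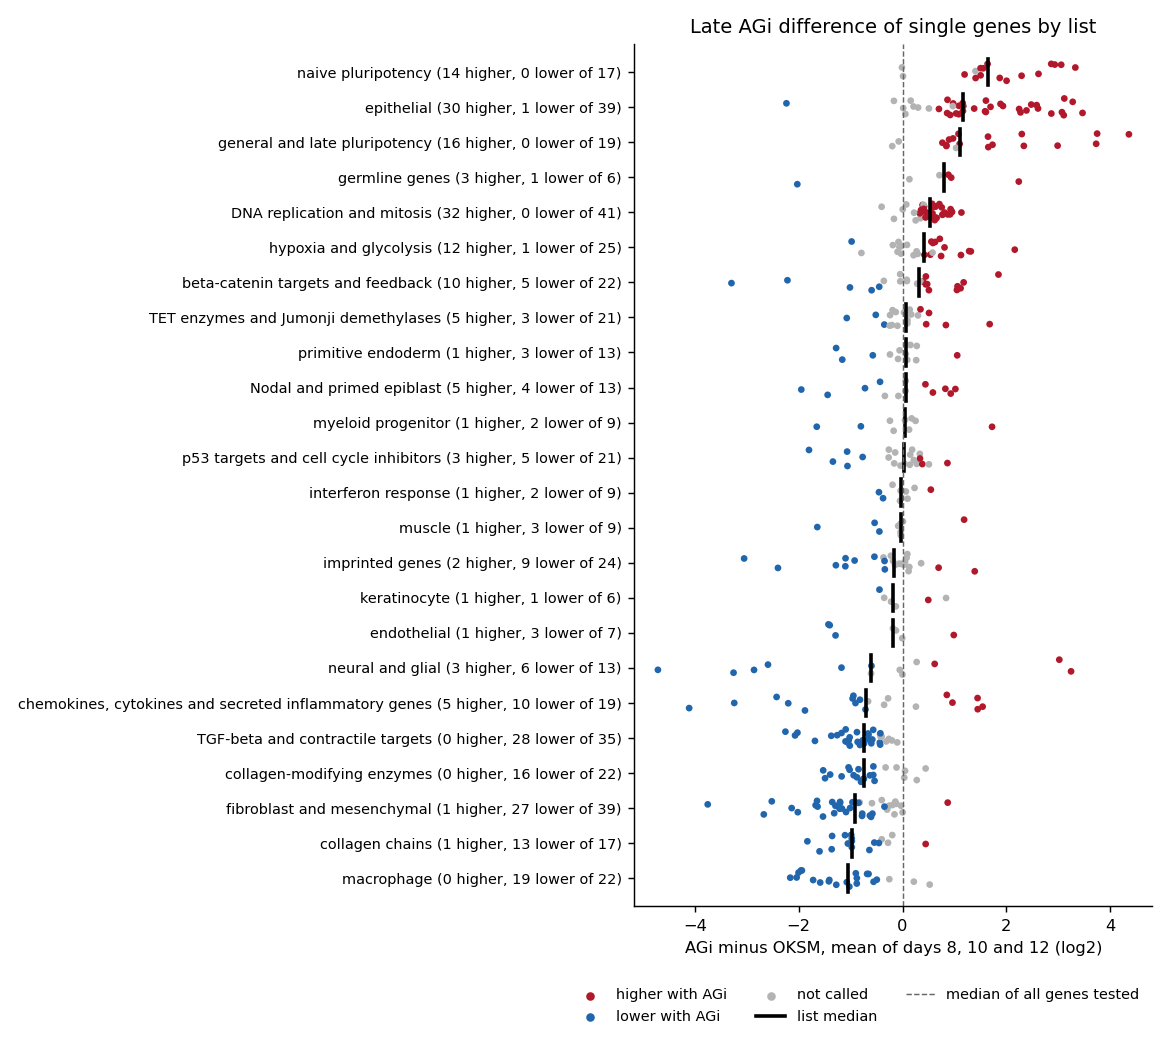
Difference between the AGi and OKSM arms (log2, horizontal) of each tested gene in 24 gene lists (rows, ordered by median), with genes called higher, called lower or not called in separate colours; the thick bar is the list's median, the dashed line the median of all tested genes, and points are spread vertically for legibility. Medians run from 1.64 for naive pluripotency to -1.05 for the macrophage list.

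Genes at the points where GSK3 and ascorbic acid act gave mixed results. Of 22 tested targets and feedback genes of beta-catenin, 10 were higher and 5 lower (median 0.31). Leaving out day 10 gave 3 higher and 2 lower, leaving out day 8 gave 5 and 4, and testing against the largest control difference gave 4 and 3. Axin2, the negative feedback gene most used as a readout of the pathway, read 8.32, 7.74 and 8.53 with AGi, against 7.23, 7.04 and 6.96 with OKSM (1.12 ± 0.18, adjusted p = 0.00685). Notum, a secreted inhibitor of Wnt, read 7.49, 7.27 and 8.09 with AGi, against 6.47, 6.26 and 6.58 with OKSM (1.18 ± 0.13, adjusted p = 0.00269). Both were above OKSM on each day. Wnt8a, a Wnt ligand, read 8.92, 8.35 and 6.97 with AGi, against 6.20, 6.07 and 6.41 with OKSM (1.85 ± 0.40, adjusted p = 0.0178, and 0.118 without day 10). Lgr5, a receptor for R-spondins and itself a Wnt target in the gut, went the other way. It read 6.48, 6.01 and 6.60 with AGi, against 8.98, 9.50 and 10.49 with OKSM (-3.30 ± 0.26, adjusted p = 0.00113), and its AGi levels were close to the MEF array at 5.93. Trabd2b (Tiki2), a protease that inactivates Wnts, read 7.16, 6.91 and 7.13 with AGi, against 8.86, 9.22 and 9.77 with OKSM (-2.22 ± 0.19, adjusted p = 0.00132). The other lower members were Tcf7l1 (-0.60) and Tcf7l2 (-1.01), which bind DNA for beta-catenin, and the cyclin Ccnd1 (-0.45), named after their values were seen.

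Among the TET and Jumonji enzymes, 5 of 21 tested genes were higher and 3 lower, or 38.1% called against 34.3% of all genes. Their median of 0.08 was near that of all genes. Without day 10 the counts were 2 and 1. Tet1, which oxidises methylated cytosine and is high in ESCs, read 9.14, 10.39 and 10.94 with AGi, against 7.98, 8.45 and 9.02 with OKSM (1.68 ± 0.18, adjusted p = 0.00219). Tet3 read 9.01, 9.07 and 8.68 with AGi, against 9.93, 9.94 and 10.12 with OKSM (-1.07 ± 0.14, adjusted p = 0.00416). Both moved in the direction of the ESC array, at 11.86 for Tet1 and 7.53 for Tet3. Tet2 rose by 0.46. Jarid2, a subunit of Polycomb complex PRC2, differed by 0.83 ± 0.10 (adjusted p = 0.00326). Phf2, a histone demethylase, differed by -0.52 ± 0.12 (adjusted p = 0.0208), a call lost without day 10 (adjusted p = 0.143) and against the largest control difference (adjusted p = 0.182). The 3 tested lysine demethylases of the Kdm4 family, Kdm4a, Kdm4b and Kdm4c, did not pass, at -0.25, -0.13 and 0.03.

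Imprinted genes were lower for 9 of 24 tested and higher for 2, and without day 10 for 5 and 0. With all days 45.8% of them were called, against 34.3% of all genes. Igf2, the fetal growth factor, read 7.81, 7.97 and 9.18 with AGi, against 11.22, 11.41 and 11.48 with OKSM. The OKSM arm stayed at the MEF level of 11.28, and the difference was -3.05 ± 0.24 (adjusted p = 0.00112) or 8.29-fold. Mest read 8.65, 8.35 and 8.60 with AGi, against 10.97, 10.94 and 10.88 with OKSM (-2.40 ± 0.11, adjusted p = 0.00052). Nnat, a membrane protein of neural and endocrine cells, differed by -1.28 ± 0.13 (adjusted p = 0.00209). Peg10, a gene of retrotransposon origin, read 10.59, 10.31 and 9.77 with AGi, against 8.50, 8.95 and 9.05 with OKSM (1.39 ± 0.25, adjusted p = 0.0103, and 0.0749 without day 10). The noncoding RNAs of the Dlk1-Dio3 domain, Meg3 at 0.13 and Rian at 0.09, did not pass and were named after their values were seen.

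Genes of DNA replication and mitosis were higher for 32 of 41 tested and lower for none, with a median of 0.53. Cdt1, which loads the replicative helicase, read 10.71, 10.86 and 10.72 with AGi, against 9.68, 9.50 and 9.71 with OKSM (1.13 ± 0.12, adjusted p = 0.002). Mcm3, a subunit of that helicase, read 10.33, 10.49 and 10.47 with AGi, against 9.48, 9.48 and 9.49 with OKSM (0.95 ± 0.10, adjusted p = 0.00211). The arms were flat over the days and apart for both genes. Mcm10 differed by 0.95 ± 0.11 and the checkpoint kinase Bub1b by 0.93 ± 0.10 (adjusted p = 0.00295 and 0.00254). Of the 41, 8 were called without day 10, 19 without day 8 and 13 against the largest control difference. Mki67 (-0.17) and Rrm1 (-0.40), also of dividing cells, did not pass.

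The inhibitors of the cell cycle and targets of p53 had 3 genes higher and 5 lower of 21 tested, so that 38.1% were called, against 34.3% of all genes. Without day 10 the counts were 0 and 5. Cdkn1a (p21) read 12.86, 12.77 and 12.83 with AGi, against 12.77, 12.84 and 12.75 with OKSM (0.03 ± 0.10, adjusted p = 0.816), with a sign that turned under quantile normalization (-0.002) and under the shift by hybridisation controls (-0.11). Cdkn2a, a known barrier to reprogramming, read 9.70, 9.69 and 9.43 with AGi, against 9.46, 9.37 and 9.18 with OKSM (0.27 ± 0.10, adjusted p = 0.0745). Neither difference passed the test. Cdkn2c (p18) fell by 1.34 ± 0.13 (adjusted p = 0.00166). The listed binding proteins of insulin-like growth factors, which are secreted, fell too, Igfbp5 by 1.80 ± 0.18 (adjusted p = 0.002), Igfbp3 by 1.07 ± 0.15 (adjusted p = 0.005) and Igfbp7 by 1.06 ± 0.13 (adjusted p = 0.00326). Outside the list this family went both ways: Igfbp4 fell (-0.99), Igfbp2 rose (1.48) and Igfbp6 (-0.24) did not pass.

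Glycolysis and hypoxia genes were higher for 12 of 25 tested and lower for 1, Ndrg1 (-0.98), a stress-responsive gene. The higher count was 3 without day 10, 7 without day 8 and 5 against the largest control difference. Pfkp, the platelet isoform of phosphofructokinase, read 11.05, 11.28 and 11.39 with AGi, against 9.07, 8.96 and 9.22 with OKSM (2.16 ± 0.11, adjusted p = 0.00052). Its AGi levels were near the ESC array at 11.34 and its OKSM levels near the MEF array at 9.39. Slc2a3 (Glut3), the glucose transporter of ESCs, read 11.38, 11.82 and 12.04 with AGi, against 10.34, 10.32 and 10.64 with OKSM (1.32 ± 0.13, adjusted p = 0.00173). Aldoc, an aldolase, differed by 1.12 ± 0.13 (adjusted p = 0.00283). Slc16a3 (MCT4), which exports lactate, differed by 1.28 ± 0.29 (adjusted p = 0.02), a call lost without day 10 (adjusted p = 0.114). The enzymes Gapdh (0.21), Pkm (0.27) and Ldha (-0.02) did not pass.

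Secreted inflammatory genes were lower for 10 of 19 tested and higher for 5. Cxcl15, a chemokine, read 5.21, 5.0 and 5.28 with AGi, against 8.64, 9.43 and 9.76 with OKSM (-4.11 ± 0.22, adjusted p = 0.000559), or 17.3-fold. The AGi arm stayed near the MEF array at 4.82. Ppbp (Cxcl7), a chemokine for neutrophils, read 9.69, 7.88 and 7.06 with AGi, against 12.29, 11.77 and 10.31 with OKSM (-3.24 ± 0.24, adjusted p = 0.000985). Both arms declined over the days; the OKSM array of day 8 lay near the MEF array at 11.86 and the AGi array of day 8 below it. Serpina3n, a protease inhibitor of the acute phase, read 8.57, 8.09 and 9.06 with AGi, against 10.61, 11.14 and 11.24 with OKSM (-2.43 ± 0.21, adjusted p = 0.00135). Cxcl14 differed by -2.20 ± 0.24 (adjusted p = 0.00241). The 5 that rose, named after their values were seen, were Ptgs2 (1.54), Il33 (1.45), Mmp10 (1.45), Mmp9 (0.96) and Mmp13 (0.85). The number of listed genes called higher was 2 without day 10 and 1 against the largest control difference. Of 9 tested interferon response genes, Bst2 was higher (0.54 ± 0.12, adjusted p = 0.0216) and Irf7 (-0.45 ± 0.11, adjusted p = 0.0268) and Usp18 (-0.38 ± 0.10, adjusted p = 0.0304) lower. This share called, 33.3%, was near the 34.3% of all genes. None of these 3 calls held without day 8 (adjusted p = 0.111, 0.156 and 0.163), without day 10 (adjusted p = 0.125, 0.0862 and 0.135) or against the largest control difference (adjusted p = 0.166, 0.292 and 0.499).

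Markers of other cell types were measured in the same cultures. Macrophage genes were lower with AGi for 19 of 22 tested and higher for none (median -1.05, 15 lower without day 10). Mrc1, the mannose receptor, read 6.37, 6.23 and 6.34 with AGi, against 7.98, 8.31 and 8.77 with OKSM (-2.04 ± 0.17, adjusted p = 0.00127). Adgre1 (F4/80) read 6.27, 5.94 and 5.60 with AGi, against 7.63, 7.81 and 8.23 with OKSM (-1.96 ± 0.24, adjusted p = 0.00314). In both genes the AGi arm was near the ESC array (6.20 and 5.88) and the OKSM arm moved up from day 8 to day 12. Csf1r, the receptor for the macrophage growth factor, read 6.75, 6.72 and 6.75 with AGi, against 7.62, 7.67 and 7.57 with OKSM (-0.88 ± 0.10, adjusted p = 0.00243). C1qb, a complement subunit, fell by 2.16 ± 0.33 (adjusted p = 0.00639, and 0.061 without day 10) and Fcer1g, a signalling chain of Fc receptors, by 2.00 ± 0.22 (adjusted p = 0.00247). The mean level of the 30 listed genes was 6.67, 6.52 and 6.56 with AGi, against 7.40, 7.49 and 7.70 with OKSM, beside 7.30 in the MEF array, 6.53 in the ESC array and 9.46 in the array of granulocyte-macrophage progenitors. Cd68 (0.52), Fcgr2b (0.22) and Laptm5 (-0.25) did not pass. Many of the secreted inflammatory genes above are also expressed by macrophages, and the part of these cells in any difference was not tested.

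Of 9 tested myeloid progenitor genes, Kit was higher (1.72 ± 0.13, adjusted p = 0.00104) and Cd34 (-1.65 ± 0.24, adjusted p = 0.00531) and Cebpa (-0.80 ± 0.10, adjusted p = 0.00318) lower. This share called, 33.3%, was near the 34.3% of all genes. Kit, the receptor for stem cell factor, is also expressed in ESCs, whose array read 10.53, and the granule genes Mpo, Elane and Ctsg were under the filter. Endothelial genes gave 3 lower (Tek at -1.43, Cdh5 at -1.40 and Erg at -1.29) and 1 higher (Mmrn2 at 0.99) of 7 tested, and the calls of Cdh5 and Mmrn2 were lost without day 10 (adjusted p = 0.0827 and 0.104). Neural and glial genes gave 6 lower and 3 higher of 13 tested, or 69.2% called against 34.3% of all genes. This list was written with earlier results of these data known, so its steep members say nothing about neural genes as a class. Tac2, which encodes neurokinin B, was the lowest called gene of all. It read 7.06, 6.15 and 6.72 with AGi, against 10.79, 11.59 and 11.68 with OKSM (-4.71 ± 0.31, adjusted p = 0.000802) or 26.2-fold, beside 5.68 in MEFs. Fabp7, a fatty acid binding protein of radial glia, read 8.38, 7.50 and 7.06 with AGi, against 10.99, 10.80 and 10.91 with OKSM (-3.26 ± 0.23, adjusted p = 0.000905), and here the MEF array stood at 11.24. Bex1 read 10.83, 10.74 and 10.83 with AGi, against 7.23, 7.47 and 7.97 with OKSM (3.25 ± 0.16, adjusted p = 0.00052), and Nefl, a neurofilament, differed by 3.02 ± 0.26 (adjusted p = 0.00139). The ESC array read 11.17 for Bex1 and 8.18 for Nefl.

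Muscle genes gave 1 higher, Des (1.19 ± 0.33), and 3 lower, Pax7 (-1.64 ± 0.34), Tnnt2 (-0.54 ± 0.12) and Acta1 (-0.45 ± 0.10), of 9 tested. All 4 calls were lost without day 10 (adjusted p = 0.165, 0.103, 0.0938 and 0.0967). The 6 tested keratinocyte genes gave Sfn higher (0.50) and Ly6d lower (-0.44), and both calls were lost without day 10 (adjusted p = 0.074 and 0.111). Genes of primitive endoderm, an extraembryonic lineage, gave Lama1 higher (1.05 ± 0.11, adjusted p = 0.00236) and Dab2 (-1.28 ± 0.13, adjusted p = 0.00211), Gata6 (-1.16 ± 0.17, adjusted p = 0.00538) and Sparc (-0.57 ± 0.10, adjusted p = 0.0104, and 0.0938 without day 10) lower of 13 tested. Gata4 (0.26) and Foxa2 (0.07) did not pass. Of the tested genes, 44.4% of the muscle, 33.3% of the keratinocyte and 30.8% of the primitive endoderm list were called, against 34.3% of all genes. Among 17 germline genes with a probe set, 6 passed the filter on low values. Of these 6, 3 were higher and 1 lower, against 16.8% and 17.5% of all genes. A gene could pass that filter through its AGi arrays alone, as Piwil2 did, so the count is a description. With no filter the counts were 3 and 1 of the 17. Piwil2, a Piwi protein, read 6.52, 7.70 and 8.91 with AGi, against 5.45, 5.37 and 5.60 with OKSM (2.24 ± 0.39, adjusted p = 0.00947, and 0.0743 without day 10), and its last AGi level was above the ESC array at 7.58. Rhox5 (0.94 ± 0.24) and Rhox6 (0.88 ± 0.20), homeobox genes of a cluster on the X chromosome, lost their calls without day 10 (adjusted p = 0.0816 and 0.105). Tdrkh, a Tudor protein of the piRNA pathway, fell by 2.03 ± 0.11 (adjusted p = 0.000559).

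Several of the extreme genes belonged to no list. Cyp2b23, a cytochrome P450, read 8.56, 9.39 and 10.33 with AGi, against 4.59, 5.24 and 6.43 with OKSM (4.00 ± 0.10, adjusted p = 0.000386). Its AGi levels lay far above both the ESC array at 5.94 and the MEF array at 5.13. Cnpy1, a relative of a zebrafish regulator of FGF signalling, read 10.07, 10.20 and 9.96 with AGi, against 6.60, 7.15 and 7.17 with OKSM (3.11 ± 0.15, adjusted p = 0.00052). Among the lowest, Nxpe2 read 5.71, 5.28 and 4.77 with AGi, against 8.71, 9.13 and 9.24 with OKSM (-3.77 ± 0.27, adjusted p = 0.000896), beside 4.61 in MEFs and 4.54 in ESCs. Adamtsl3, a matrix protein related to the ADAMTS proteases, read 7.04, 6.96 and 6.73 with AGi, against 10.13, 10.38 and 10.55 with OKSM (-3.44 ± 0.16, adjusted p = 0.00052). For both of these the OKSM arm lay above the MEF array (8.68 for Adamtsl3). Pcp4 (-3.33 ± 0.16), a calmodulin-binding peptide, Sparcl1 (-3.16 ± 0.23), a matricellular protein, Rtl3 (-3.09 ± 0.12), a gene of retrotransposon origin, and Pde2a (-3.07 ± 0.10), a cyclic nucleotide phosphodiesterase, completed the 12 lowest. The 12 highest and 12 lowest genes were called in every fit that left out 1 day and against the largest control difference.

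Within the late window the arms moved at different paces. With AGi, 41 tested genes rose by at least 1 log2 between days 8 and 10 and 15 fell, and between days 10 and 12 the counts were 201 and 143. With OKSM the counts were 6 and 9, and then 44 and 3. The number of genes at least 1 log2 higher with AGi was 338, 457 and 619 on the successive days, and the number at least 1 log2 lower was 581, 720 and 847. These are differences between single arrays, with no test. Of the 4584 called genes, the difference grew away from 0 on both steps for 1242 (27.1%; 586 higher and 656 lower) and shrank on both for 716 (15.6%; 396 higher and 320 lower). Of the 14 called naive pluripotency genes 9 widened and 3 narrowed.

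The genes whose gap widened most were Nup62cl, Slc39a4, Gm21082, Triml2 and Lrrc31, which were higher, and Kctd12, which was lower. Slc39a4, a zinc importer, read 6.59, 7.83 and 10.26 with AGi, against 6.06, 5.82 and 6.18 with OKSM, so that its gap of 0.53 on day 8 was 4.08 on day 12. Nup62cl read 6.98, 7.99 and 10.60 with AGi, against 6.29, 6.10 and 6.36 with OKSM. Triml2 read 6.66, 8.00 and 9.82 with AGi, against 5.63, 5.50 and 6.04 with OKSM. In these genes the OKSM arm was flat and the AGi arm rose to about the ESC level (10.08, 9.58 and 10.51). Lrrc31 read 7.42, 8.94 and 10.32 with AGi, against 6.00, 6.01 and 6.37 with OKSM. Kctd12, an auxiliary subunit of GABA-B receptors, read 9.12, 8.25 and 7.16 with AGi, against 10.75, 10.90 and 11.37 with OKSM. A gap that changes over the days is itself spread to this test, and all 6 calls were lost without day 10 (adjusted p between 0.056 for Kctd12 and 0.152 for Gm21082).

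The genes whose gap narrowed most were Wnt8a, Pla2g1b, Utf1, Elmod1, Nanog and Mroh6. They narrowed in different ways. For Nanog, Utf1 and Pla2g1b the OKSM arm rose towards a higher AGi arm: the successive gaps of Nanog were 3.85, 3.18 and 2.13. Pla2g1b, a secreted phospholipase, read 7.92, 8.07 and 7.58 with AGi, against 4.84, 5.06 and 6.34 with OKSM. For Wnt8a, Elmod1 and Mroh6 the AGi arm declined: Elmod1 read 8.65, 7.74 and 6.33 with AGi, against 6.75, 6.64 and 6.16 with OKSM, and Mroh6 read 8.92, 8.38 and 7.44 with AGi, against 7.02, 6.96 and 7.15 with OKSM. On day 12 the AGi array of Elmod1 lay within the range of the OKSM arrays. The calls of Wnt8a, Pla2g1b, Elmod1 and Mroh6 were lost without day 10 (adjusted p = 0.118, 0.0555, 0.183 and 0.15), and that of Elmod1 also without day 8 (adjusted p = 0.0834).

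**Figure D4:**
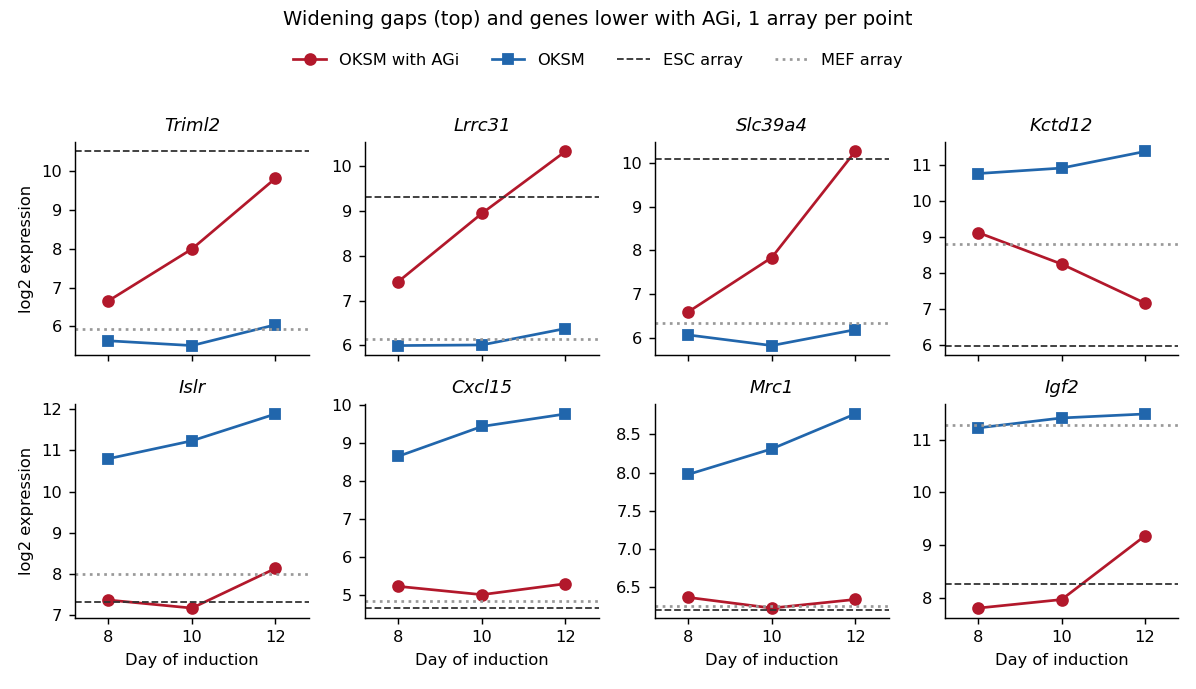
Log2 expression (vertical) by day of induction (horizontal) of 4 genes whose gap widened (top) and 4 genes that were lower with AGi (bottom), 1 array per point, OKSM plus AGi as circles and OKSM as squares, with the single ESC (dashed) and MEF (dotted) arrays. Triml2, Lrrc31 and Slc39a4 rise in the AGi arm and stay between 5.50 and 6.37 in the OKSM arm, and the OKSM arm of Islr, Cxcl15 and Mrc1 lies above the MEF line on every day.

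The late effect was set against that of days 2, 4 and 6 in a fit of all 12 arrays, which tests the difference between the effects of the windows. With limma, 89 of 13865 tested genes had a higher late than early effect (0.642%) and 250 a lower one (1.8%). Of these 339 genes, 327 (96.5%) were also called in the late contrast, which shares the late arrays. The counts changed with the day left out: without day 10 they were 1 and 0. With day 2 left out they were 9 and 21, with day 4 left out 2 and 16, and with day 6 left out 69 and 106. With day 8 left out they were 176 and 275, and with day 12 left out 44 and 130. Dppa2 had AGi differences of 0.07, -0.17 and 0.16 on days 2, 4 and 6 and of 2.63, 3.31 and 3.02 on days 8, 10 and 12 (late minus early 2.96 ± 0.19, adjusted p = 0.00367). Zfp42 had -0.03, 0.01 and 0.34 early and 2.00, 3.04 and 3.76 late (2.83 ± 0.39, adjusted p = 0.0257). Both genes were level with OKSM until day 6. Tdgf1 (3.84 ± 0.66, adjusted p = 0.0356), Cyp2b23 (3.63 ± 0.47, adjusted p = 0.0207), Sox2 (3.35 ± 0.42, adjusted p = 0.0196) and Mir290a (2.79 ± 0.53, adjusted p = 0.0432) were already 1.0 to 1.96 higher with AGi on day 6. Nanog, with a gap of 3.06 on day 6, had a late minus early difference of 1.77 ± 0.75 that did not pass (adjusted p = 0.257).

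On the lower side, Cxcl15 had differences of -0.49, -0.36 and -0.27 early and -3.43, -4.43 and -4.47 late (-3.74 ± 0.27, adjusted p = 0.00576). Lgr5 had -0.04, -0.12 and -0.43 early and -2.50, -3.49 and -3.89 late (-3.10 ± 0.33, adjusted p = 0.0172). Both gaps opened between days 6 and 8. Fgf5 had -0.12, 0.06 and -0.22 early and -1.94, -1.90 and -2.01 late (-1.86 ± 0.12, adjusted p = 0.00367). Sparcl1 (-2.97), Wfdc17 (-2.85), a secreted protein of activated macrophages, Mctp1 (-2.66), a calcium-binding membrane protein, and Ecm2 (-2.62), a matrix protein, made up the rest of the 6 lowest among the genes that passed. Tac2, at -2.77, did not pass (adjusted p = 0.181), nor on the higher side did Utf1, at 2.94 (adjusted p = 0.103). The macrophage markers Mrc1 (-2.12 ± 0.26, adjusted p = 0.0196) and Adgre1 (-2.00 ± 0.31, adjusted p = 0.028) also passed: Mrc1 had differences of 0.52, -0.23 and -0.05 early and of -1.61, -2.08 and -2.43 late.

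**Figure D5:**
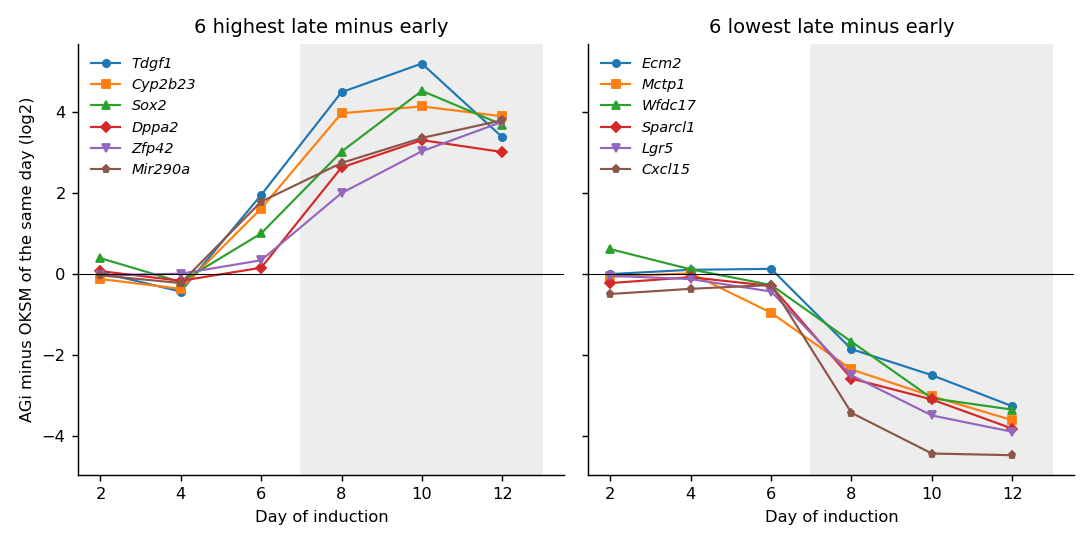
AGi minus OKSM of the same day (log2, vertical) on days 2 to 12 of induction (horizontal) for the 6 genes with the highest (left) and the 6 with the lowest (right) late minus early difference among those that passed the test; each point is a difference of 2 arrays and the shaded part marks days 8 to 12. The left lines rise to between 3.02 and 3.90 on day 12 and the right lines fall to between -3.26 and -4.47.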

How the data were processed

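Total RNA (RNeasy Mini, DNase-treated) was biotin-labelled and hybridised to Affymetrix mouse gene arrays (labels' protocols). The authors deposited RMA values on the log2 scale, 1 per probe set; the submitters' processing notes name Affymetrix Expression Console. The sources used here give no settings, scan dates or genome build, and no batch could be tested. Of 41345 probe sets, 23521 had 1 gene symbol, 1814 several and 15820 none. Symbols were updated through RefSeq gene IDs (GRCm38.p6). Where several probe sets served 1 of the 22180 genes, the one brightest on average over the 18 arrays was kept.

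A gene was tested where it reached the array median on at least 3 of the 6 arrays, which left 13366. The late effect was fitted with limma 3.58.1 in R 4.3.3 (lmFit, eBayes, Benjamini-Hochberg over all tested genes, threshold 0.05) with day as a block (2 residual degrees of freedom), and late minus early on all 12 time-course arrays (4). Pairing comes from the day in the labels. Deviations of same-day arrays from their arm's mean correlated at 0.24, 0.065 and 0.232 on days 8, 10 and 12. Precision is limited by the number of arrays. The fits were tested on simulated arrays. There the late fit called 0% of genes changed by 0.5 log2, 50.7% of those changed by 1 and 86.4% of those changed by 2. Only 67, 67 and 66 of 13366 genes were changed, far fewer than were called in the data, so these shares need not hold for the real fit.

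The members and gene lists were chosen with earlier results of these data known. The text names the 12 highest and 12 lowest called genes, up to 4 members per list, 16 key genes, the 6 highest and lowest late minus early differences, the 6 most widened and 6 most narrowed gaps and the listed microRNAs. Other genes are named by their list's result. Alternatives were other filters, probe set rules, normalizations, variance models, day terms and thresholds, a test against the largest control difference, and each day left out.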

Additional observations from a re-analysis of the deposited data

Results flagged for a closer look

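Among the named genes, 34 had an AGi difference in days 8 to 12 that differed from that in days 2 to 6 by limma's test of the difference itself (log2, late minus early, 3 days each). All of them rest on 1 array per arm and day, and without day 10 the whole test called 1 gene higher and 0 lower. The count of 34 is partly fixed by the choice of genes. The 6 highest and 6 lowest were named for this same difference, and others for a large late effect. Over all 13865 tested genes, 0.642% were higher late and 1.8% lower. Genes of the pluripotency and microRNA lists were higher late: Tdgf1 by 3.84, Sox2 by 3.35, Dppa2 by 2.96, Zfp42 by 2.83, Mir290a by 2.79, Trim6 by 2.19 and Tfcp2l1 by 1.86. Eomes, of the Nodal and primed epiblast list, was higher late by 0.94. Cyp2b23 was higher late by 3.63, the claudin Cldn6 by 2.35, the glucose transporter Slc2a3 by 1.70 and Tet1 by 1.35.

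The others had more negative late differences. The values were -3.74 for Cxcl15, -2.97 for Sparcl1, -2.85 for Wfdc17, -2.62 for Ecm2, -2.60 for Islr, -2.23 for Adamtsl3, -2.17 for Serpina3n and -1.65 for Igfbp5. The collagen-modifying genes Adamts3, P4ha3 and P3h2 had -1.16, -0.95 and -0.91. The macrophage markers Mrc1, Adgre1 and Fcer1g had -2.12, -2.00 and -1.67. The remaining genes were Lgr5 at -3.10, Mctp1 at -2.66, Nxpe2 at -2.60, Pcp4 at -2.46, Fgf5 at -1.86, Mest at -1.13, Erg at -1.07 and Cdkn2c at -0.90.

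The 18 hybridisation control probe sets, which read no cellular RNA, were higher with AGi by a mean of 0.148 on days 8, 10 and 12 (0.195, 0.0404 and 0.21), beside 0.187 on days 2, 4 and 6. Their part in the genes' differences was not tested beyond the fits against them.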

How the results depend on the processing

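Late counts of genes higher and lower (2247 and 2337) stayed within 1.5 times of these under another filter, probe set rule, quantile normalization, variance model or estimate of the spread. They were 794 and 1136 against the largest control difference, 836 and 1174 at an adjusted p of 0.01, 369 and 651 with a difference of at least 1 log2, and 1254 higher with arrays shifted by hybridisation controls. Leaving out 1 day gave 473 to 2847 higher and 820 to 2772 lower. Late minus early counts (89 and 250) were 30 and 118 with a filter on the mean, 42 and 140 against the largest control difference, 1 and 8 at 0.01, and 1 to 176 and 0 to 275 with 1 day left out. Without the pairing by day (no replicate block) the late counts were 2250 and 2358, and the late minus early counts 9 and 48. The control difference was 0.118 to 0.202 with 1 day left out. Of 124 named tested genes, 37 lost their call without day 10, 9 without day 8 and 0 without day 12, 21 against the largest control difference, 12 without the block and 5 with no filter. The signs of Klf4 (shift by controls -0.0978, with 1 day left out -0.0242 to 0.1699) and Cdkn1a (quantile -0.002, shift -0.1142) turned, and neither was called in any fit. With 3 days per arm, no day repeated and a difference between the arms' controls, small differences are the least secure. The causes were not tested, and fits with 1 day left out have fewer arrays.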

Other observations

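Families defined by gene symbol alone, looked at after the values were seen, held further patterns of the late contrast (16.8% of all tested genes were higher and 17.5% lower). Protocadherins, adhesion proteins best known from neurons, were lower for 15 of 18 tested and higher for none, from -0.56 (Pcdhga10) to -1.79 (Pcdh18), and 10 were called without day 10. The ADAMTS proteases and their relatives were lower for 13 of 17, with Adamts5, which cleaves aggrecan, at -2.82. Among cadherins, Cdh1 (2.58) and Cdh3 (1.19) rose, while Cdh2 (-1.21), Cdh6 (-2.16) and Cdh11 (-2.02) were among 7 that fell. Claudins split in the same way, with Cldn3, Cldn4, Cldn6 and Cldn7 higher and Cldn1 (-1.48) and Cldn11 (-1.63) lower. Of 21 tested keratins, Krt8 (0.92) and Krt18 (1.89), the pair of simple epithelia and ESCs, were the ones called.

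Of the 4 tested R-spondins, which amplify Wnt signals, Rspo2 (-2.79) and Rspo3 (-2.98) fell, and Rspo1 (-0.44) and Rspo4 (-0.18) did not pass. Sfrp2 (-2.95) and Sfrp1 (-0.58), which bind Wnts, fell, whereas the Wnt inhibitors Notum (1.18) and Wif1 (0.45) rose. Of the fibroblast growth factors, Fgf4 (0.90), a product of pluripotent cells, and Fgf11 (0.48) were higher, and Fgf7 (-2.17), Fgf18 (-1.85), Fgf5 (-1.95) and Fgf14 (-0.50) lower. Bmp7 rose by 1.75 and Bmp4 had -1.0. Hox genes, which hold the positional identity of fibroblasts, were lower for 13 of 28 and higher for none, led by Hoxd11 (-1.59) and Hoxd13 (-1.53), and 3 were called without day 10. All 9 minichromosome maintenance genes were higher, from 0.39 to 0.95, with 3 called without day 10. Of 51 tested genes of cytosolic ribosomal proteins, 27 were higher and none lower (median 0.36), of which 2 were called without day 10 and 4 against the largest control difference. Among the enzymes of DNA methylation, Dnmt3l (1.65), Dnmt3b (0.84) and Dnmt1 (0.50) were higher and Dnmt3a (-0.43) lower.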
